A study of Homo sapiens with 18 samples.

Results

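The comparison described here is the step from 48 h to 96 h of enzalutamide in 16D cells, taken as the 3 libraries at 96 h against the 3 libraries at 48 h. These are 6 of the 18 RNA sequencing libraries of the series. The 96 h group and the 48 h group are the same castration-resistant prostate cancer line with a WT genotype, kept in RPMI with 10% FBS, and both carry 10 µM enzalutamide, for 96 h and for 48 h. The other libraries are 3 each of vehicle (DMSO), of 24 h and 144 h of the drug, and of long-term treatment. The 24 h, 144 h and long-term groups, also at 10 µM enzalutamide, were used for comparison and for the estimate of spread. The DMSO libraries were left out of the main fit. No vehicle group was labelled for each time, so hours of drug and hours in culture cannot be told apart. Whether the drug was renewed between 48 h and 96 h is not given in the sources used here. Nothing in the labels says that replicates came from separate cultures, and the spread that the p-values rest on may be technical.

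Enzalutamide is an antagonist of the androgen receptor, the nuclear receptor that binds testosterone and dihydrotestosterone. The bound receptor enters the nucleus and sits on paired short DNA motifs, where it induces secreted proteases such as prostate-specific antigen and represses another group of genes. Prostate luminal cells depend on the receptor for secretion, lipid synthesis and growth, so the genes below are ordered by these roles: androgen targets, secreted and adhesion proteins, cell cycle, protein synthesis and metabolism.

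The prostate epithelial label was checked against marker genes. The 7 luminal prostate markers KRT8, KRT18, EPCAM, HOXB13, FOLH1, KLK3 and CDH1 were all measured, with a summed level of 1311 to 1528 TPM (a level scaled by transcript length and library total) at 96 h and 1428 to 1452 TPM at 48 h. Leukocyte markers summed to at most 0.44 TPM at 96 h and 0.54 TPM at 48 h, and endothelial markers to at most 2.27 TPM at 96 h and 2.18 TPM at 48 h, with CD3E, MS4A1, PECAM1 and TEK at 0 in all 6 libraries. Fibroblast markers summed to 20.4 to 31.4 TPM at 96 h and 20.4 to 23.4 TPM at 48 h, with COL1A2 at 0. Nearly all of this sum was COL1A1, which averaged 25.9 TPM at 96 h and 21.5 TPM at 48 h. Every other fibroblast marker stayed at or below 0.55 TPM in each of the 6 libraries. Mitochondrial transcripts took 15.1%, 20.04% and 24.01% of the TPM in the 96 h libraries and 20.1% to 20.5% in the 48 h libraries. That is 19.7% ± 4.49 at 96 h against 20.3% ± 0.245 at 48 h (SD, n = 3 each; exact two-sided permutation test, p = 0.7, where 0.1 is the smallest value that 3 against 3 allows). The 96 h libraries therefore spread more than the 48 h libraries in this share. Depth is unknown, because the deposited values are TPM and no read totals were held.

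Of 16169 genes tested, 160 (0.99%) passed an adjusted p of 0.05 between 96 h and 48 h, 121 higher (0.748%) and 39 lower (0.241%) at 96 h. Here and below, a gene is called when the limma test on log2(TPM + 1) gives a Benjamini-Hochberg adjusted p under 0.05, and fold changes are on that log2 scale, which understates the change of low genes. The differences were small: the median absolute log2 fold change of the called genes was 0.55, and 17 genes (0.105%) were called with at least 1 on the log2 scale, 11 higher and 6 lower. In all 160 genes the 3 libraries at 96 h did not overlap the 3 at 48 h, but neither did they in 3032 of all genes (18.8%), 1939 higher (12%) and 1093 lower (6.76%). At an unadjusted p of 0.05, 1805 genes (11.2%) differed. Of all genes tested, 8771 had a positive log2 fold change and 7365 a negative one. The positive count ran from 7670 to 10265 over the alternative settings, and the sign counts of the lists below stand beside it. The called counts of those lists stand beside the shares of 0.748% higher and 0.241% lower. Leaving out each of the 6 libraries in turn, 41 of the calls held every time, 26 higher and 15 lower.

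The split of 76% higher depended on the libraries used and on scaling. Without 96 h replicate 1, the library with the lowest mitochondrial share, 83 genes were called and 56.6% of them were higher. Leaving out any other of the 6 libraries gave 66.04% to 75.89% higher, and the 6 libraries alone gave 67.7% of 31. With median-of-ratios scaling 57.5% of 315 calls were higher, with quantile normalization 60.2% of 354, and with the mitochondrial share as a covariate 57.1% of 461. After rescaling without mitochondrially encoded genes, 66.4% of 324 were higher. The called genes named below kept their direction under each of these settings.

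**Figure D1:**
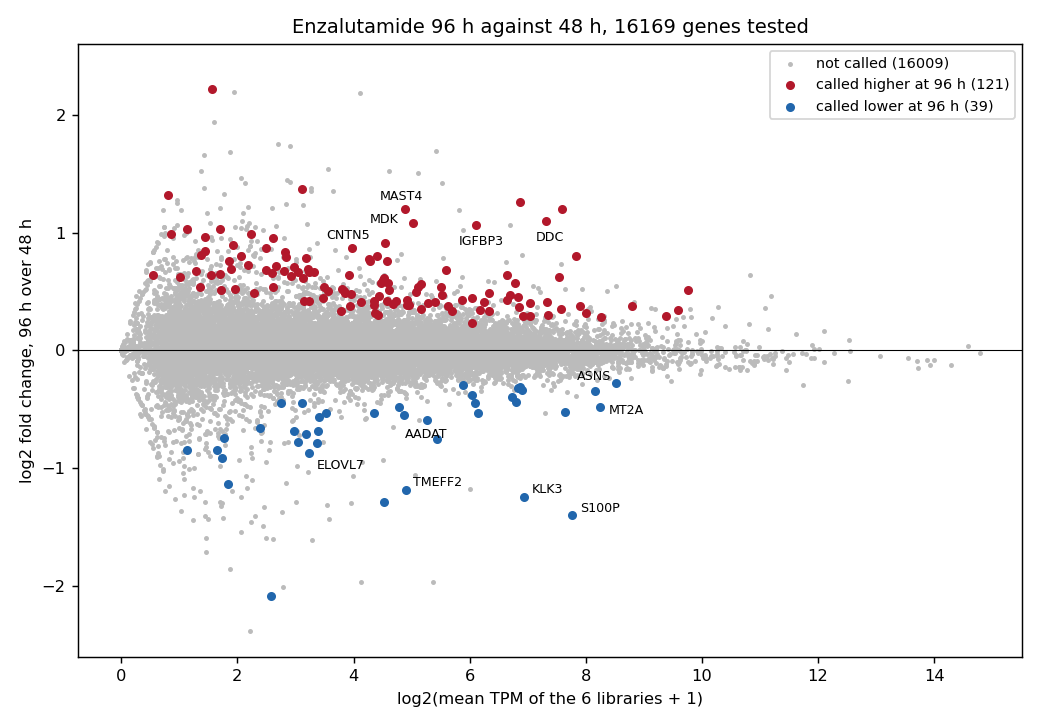
Log2 fold change of 96 h over 48 h (vertical axis) against mean level in the 6 libraries (horizontal axis, log2 of mean TPM + 1) for 16169 genes, with the 121 genes called higher at 96 h in red, the 39 called lower in blue and 12 named genes labelled. S100P, KLK3 and TMEFF2 lie lowest among the labelled genes, and MAST4, DDC, MDK and IGFBP3 highest.

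Among genes that androgen induces in prostate cells, the kallikreins fell. KLK3, which encodes prostate-specific antigen (chromosome 19, 50854915 to 50860764, plus strand; positions here and below are GENCODE 29 genes on GRCh38), had 76.1, 70.9 and 68.5 TPM in replicates 1 to 3 at 96 h, against 174, 169 and 172 TPM at 48 h. All 96 h libraries lay below all 48 h libraries, and the log2 fold change was -1.25 ± 0.07 (SE; adjusted p = 2.5e-07). KLK2, the neighbouring kallikrein 2 (50861568 to 50880567, plus strand), had 6.64, 7.23 and 7.16 TPM at 96 h and 11.4, 12.4 and 11.8 TPM at 48 h, a log2 fold change of -0.68 ± 0.10 (adjusted p = 0.0044). KLK4, a protease first known from tooth enamel, on the minus strand of the same locus (50906352 to 50910738), averaged 93.8 ± 1.90 TPM at 96 h and 127 ± 3.74 TPM at 48 h (SD, n = 3 each), a log2 fold change of -0.44. The kallikrein genes are similar in sequence, so reads of 50 bases could be shared between KLK2 and KLK3, and their separate sizes are less certain than their common direction.

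The bases before the KLK3 and KLK2 starts are shown because these neighbours moved together and both windows hold the same element. The sequences are the 250 bases upstream of the start, read 5′ to 3′ on the plus strand from the RefSeq table of GRCh38.p14, KLK3 at chr19:50854665-50854914 and KLK2 at chr19:50873189-50873438, with the match in capitals. The RefSeq start of KLK2 lies inside the longer GENCODE gene.
KLK3: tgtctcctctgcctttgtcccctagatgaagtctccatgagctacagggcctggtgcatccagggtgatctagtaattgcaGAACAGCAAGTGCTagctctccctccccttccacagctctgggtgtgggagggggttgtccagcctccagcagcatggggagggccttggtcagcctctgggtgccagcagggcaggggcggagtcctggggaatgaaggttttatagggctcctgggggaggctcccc
KLK2: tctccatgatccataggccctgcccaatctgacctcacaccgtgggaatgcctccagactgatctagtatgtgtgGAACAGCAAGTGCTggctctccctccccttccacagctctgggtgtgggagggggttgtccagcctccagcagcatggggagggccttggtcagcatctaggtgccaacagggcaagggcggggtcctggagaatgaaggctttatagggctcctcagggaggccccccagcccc
The capitals mark GAACANNNNGTNCT, a palindrome-like pair of half-sites of the kind that the androgen receptor binds, searched on both strands. Its letters were chosen after the KLK3 sequence was seen. The match begins 169 bases before the start in KLK3 and 175 bases before it in KLK2, and 76 of 35116 upstream windows in the table (0.216%) hold at least 1 match. In KLK4 and in SLC45A3 the letters do not occur in the window of the RefSeq start that was read. A match is a description of the sequence and not a measured binding site.

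The rest of the androgen-induced list moved less. Of its 32 measured members, 4 were called lower (3 to 7 over the alternative settings) and 0 higher, against 0.241% and 0.748% of all genes. The fourth called member, SLC45A3 (prostein, a membrane transporter of prostate cells), had 24.5, 20.1 and 21.9 TPM at 96 h and 31.7, 30.9 and 30.9 TPM at 48 h, a log2 fold change of -0.48. Its call was lost without 48 h replicate 1, 2 or 3 or 96 h replicate 2, with adjusted p up to 0.071. The list had a median log2 fold change of -0.12, against 0.02 for all genes, with 24 negative and 8 positive members. TMPRSS2, the serine protease whose promoter is fused to ERG in many prostate cancers, had 31.5, 32.8 and 35.6 TPM at 96 h and 36.5, 29.5 and 32.5 TPM at 48 h, so its libraries overlapped. FKBP5, a co-chaperone of steroid receptors, had 26.4, 24.0 and 20.3 TPM at 96 h and 28.8, 27.02 and 26.7 TPM at 48 h, a log2 fold change of -0.22 ± 0.10 that was not called (adjusted p = 0.44). FKBP5 passed the threshold only with the mitochondrial share as a covariate (adjusted p = 0.02). PMEPA1, an inhibitor of TGF-beta signalling, had a log2 fold change of 0.26, the highest of the list, and was not called.

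Genes that androgen represses had called increases. Of the 9 listed members 4 were called higher (2 to 6 over the alternative settings) and 0 lower, against 0.748% and 0.241% of all genes. The median log2 fold change was 0.32. DDC, aromatic amino acid decarboxylase, which makes dopamine and serotonin (chromosome 7, 50458436 to 50565457, minus strand), had 244, 209 and 198 TPM at 96 h, against 101, 99.3 and 101 TPM at 48 h. The groups were far apart, with a log2 fold change of 1.09 ± 0.10 (adjusted p = 0.00011). UGT2B17 and UGT2B15, which couple androgens to glucuronic acid for clearance, averaged 58.7 ± 6.09 and 121 ± 12.9 TPM at 96 h and 36.2 ± 0.958 and 77.0 ± 4.57 TPM at 48 h, with log2 fold changes of 0.68 and 0.64. These enzymes lie side by side on chromosome 4 and are close copies, so their reads cannot be fully separated. Their relatives UGT2B11 and UGT2B10 had log2 fold changes of -0.14 and -0.07 and were not called. CAMK2N1, an inhibitor of calcium/calmodulin-dependent kinase II, had 12.5, 11.1 and 10.3 TPM at 96 h and 7.06, 7.09 and 6.03 TPM at 48 h, a log2 fold change of 0.67. FOLH1, prostate-specific membrane antigen, had a log2 fold change of 0.13 and was not called. DDC and the kallikreins are known androgen targets, and this list was drawn up with earlier results of these data known, so it is no independent evidence of its direction.

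Outside the androgen lists, S100P fell furthest of the genes that kept their call in all 6 leave-one-out fits. S100P, a small calcium-binding protein (chromosome 4, 6693069 to 6697170, plus strand), had 132, 119.9 and 106 TPM at 96 h and 331, 303 and 312 TPM at 48 h. Its log2 fold change was -1.40 ± 0.10 (adjusted p = 7.7e-06). TMEFF2, a membrane protein with EGF-like and follistatin-like domains (chromosome 2, 191949043 to 192195709, minus strand), had 20.5, 15.7 and 15.9 TPM at 96 h and 39.8, 42.5 and 38.8 TPM at 48 h. Its level at 96 h was below that at 48 h in every library, with a log2 fold change of -1.18 ± 0.10. ST6GALNAC1, which builds the sialyl-Tn sugar antigen, had 1.37, 0.94 and 1.40 TPM at 96 h and 3.33, 4.32 and 4.05 TPM at 48 h, a log2 fold change of -1.13, and was the only called gene of 15 sialyltransferases and O-glycan enzymes. SLPI, a secreted inhibitor of neutrophil elastase, averaged 5.06 ± 0.737 TPM at 96 h and 9.36 ± 0.82 TPM at 48 h. SLC43A1, a transporter of leucine and other neutral amino acids, averaged 57.0 ± 3.12 TPM at 96 h and 82.9 ± 0.853 TPM at 48 h, and AADAT, an aminotransferase of lysine and kynurenine breakdown, 29.7 ± 1.14 TPM at 96 h and 45.2 ± 0.95 TPM at 48 h. The log2 fold changes of SLPI, SLC43A1 and AADAT were -0.78, -0.53 and -0.59.

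Small RNA genes apart, the largest called increases that reached 5 TPM at 96 h were in a kinase, an enzyme and secreted growth factor proteins. MAST4, a microtubule-associated serine/threonine kinase (chromosome 5, 66596361 to 67169595, plus strand), had 41.8, 39.1 and 39.2 TPM at 96 h and 14.6, 17.4 and 18.9 TPM at 48 h. The log2 fold change was 1.20 ± 0.10 (adjusted p = 3.9e-05), and DDC, given above, came next. MDK, the heparin-binding growth factor midkine (chromosome 11, 46380756 to 46383837, plus strand), had 47.7, 41.5 and 40.3 TPM at 96 h and 15.5, 22.9 and 21.6 TPM at 48 h. Its log2 fold change was 1.08 ± 0.12. IGFBP3, which carries insulin-like growth factors (chromosome 7, 45912245 to 45921874, minus strand), had 94.5, 91.3 and 92.8 TPM at 96 h and 46.3, 42.2 and 43.2 TPM at 48 h. The narrow spread gave it the smallest adjusted p of the increases (log2 fold change 1.06 ± 0.06, adjusted p = 2.5e-07). ADRA2A, the alpha-2A adrenergic receptor, had 5.92, 5.33 and 4.45 TPM at 96 h and 1.87, 2.36 and 2.18 TPM at 48 h, a log2 fold change of 0.99. LRATD1 averaged 7.05 ± 1.498 TPM at 96 h and 3.11 ± 0.37 TPM at 48 h, IFI27L2 8.02 ± 0.913 TPM at 96 h and 4.26 ± 1.09 TPM at 48 h, and TMEM59L 23.3 ± 1.04 TPM at 96 h and 13.2 ± 0.864 TPM at 48 h. With the 6 libraries alone in the fit, which leaves fewer degrees of freedom, 31 genes were called, 28 of them among the 160. MAST4, DDC, IGFBP3, S100P, KLK3 and TMEFF2 stayed below an adjusted p of 0.05 there, and MDK (0.062), ADRA2A (0.0505), LRATD1 (0.096), IFI27L2 (0.13) and SLPI (0.078) did not. Of the genes below whose call held in all 6 leave-one-out fits, CDH18 (0.061), ELOVL7 (0.075), EGR1 (0.079), ID2 (0.0898) and ASNS (0.0932) also lost it there. So did UPK2 and HLA-DRA, described at the end, and UGT2B15 and CAMK2N1, described above.

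**Figure D2:**
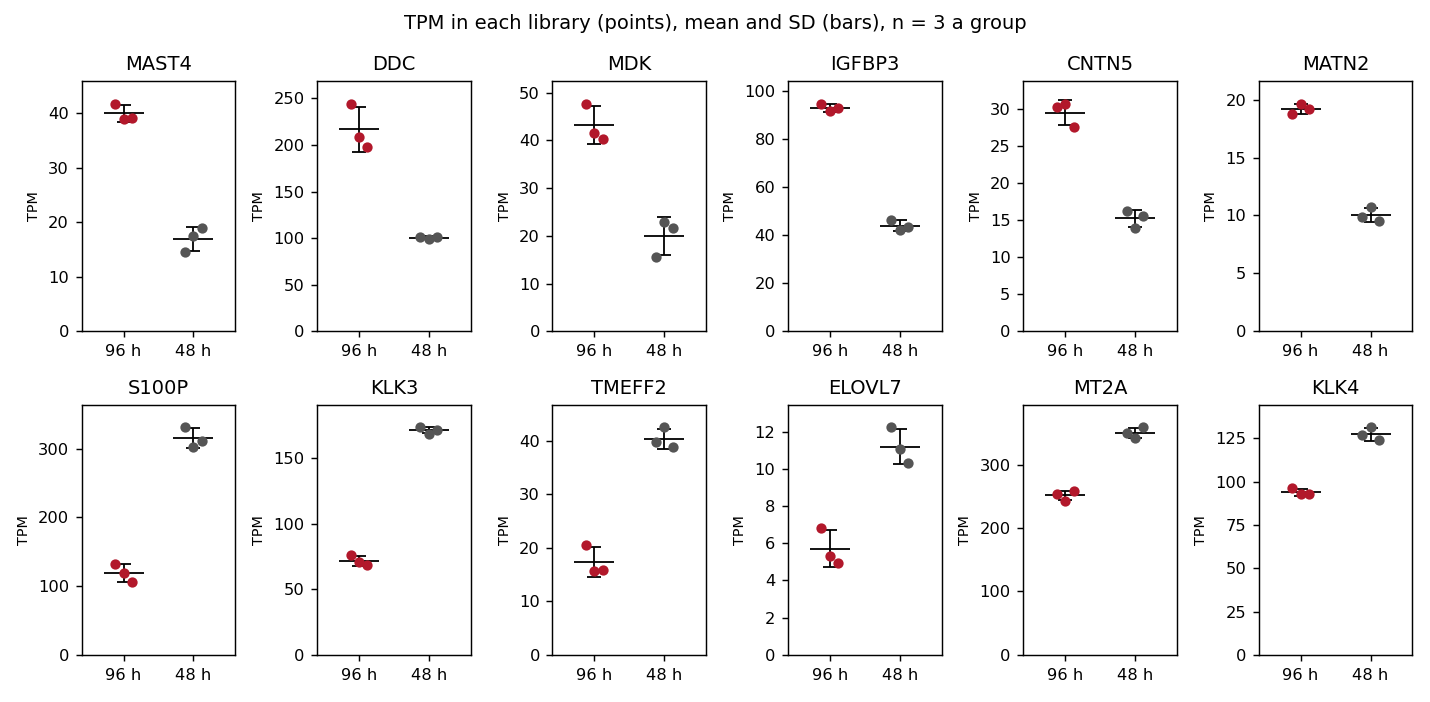
TPM of 12 named genes in each library, 96 h left of 48 h in every panel. Points are libraries, the wide bar is the mean and the whiskers are ± SD (n = 3 a group). In all 12 genes the 96 h points do not overlap the 48 h points, above them in the upper row and below them in the lower row.

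Of the other genes called with at least 1 on the log2 scale, chosen after their values were seen, TENM2 (teneurin 2, a synaptic adhesion protein) and MID1 (a microtubule-binding ubiquitin ligase) stayed under 5 TPM. TENM2 averaged 1.94 TPM at 96 h with a log2 fold change of 1.03, and MID1 3.37 TPM with 1.03. The remainder were small RNA genes. RMRP had 250.7, 261 and 286 TPM at 96 h and 95.9, 128 and 123 TPM at 48 h, and RPPH1, the RNA of ribonuclease P, 139, 173 and 178 TPM at 96 h and 56.8, 76.7 and 70.2 TPM at 48 h. Each of these calls held in only 1 of 6 leave-one-out fits (adjusted p up to 0.104 for RMRP and 0.116 for RPPH1). RN7SK, an RNA that restrains transcription elongation, averaged 11.4 ± 1.08 TPM at 96 h and 3.86 ± 0.858 TPM at 48 h, and SNORA21B, a small nucleolar RNA, 12.5 ± 3.42 TPM at 96 h and 31.7 ± 6.83 TPM at 48 h. Their calls, at log2 fold changes of 1.37 and -1.29, held in all 6 fits. Transcripts of RNA polymerase III such as RMRP, RPPH1 and RN7SK carry no poly(A) tail as a rule, while the libraries were made from poly(A)-selected RNA. The summed level of RMRP, RPPH1, RN7SK, RN7SL1 and RN7SL2 was 807 ± 87.5 TPM at 96 h and 386 ± 29.7 TPM at 48 h (SD, n = 3 each; exact two-sided permutation p = 0.1, the smallest possible). This sum differed between the same groups as the called genes, and its part in their change was not tested. Without small RNA genes, 115 genes were called higher.

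Proteins of cell adhesion and matrix were among the called increases, which were 0.748% of all genes. Of 34 measured genes of axon guidance and neurite adhesion, 4 were called higher and 0 lower. Over the alternative settings 1 to 7 were called higher and 0 to 1 lower. The median log2 fold change was 0.15, against 0.02 for all genes. CNTN5, contactin 5, a neuronal adhesion molecule held on the membrane by a lipid anchor (chromosome 11, 99020953 to 100358885, plus strand), had 30.3, 30.8 and 27.6 TPM at 96 h and 16.2, 13.9 and 15.6 TPM at 48 h. Its log2 fold change was 0.91 ± 0.14 (adjusted p = 0.0054) and held in all 6 leave-one-out fits. The synapse organizer CBLN2 averaged 93.3 ± 9.90 TPM at 96 h and 66.1 ± 0.952 TPM at 48 h. The leucine-rich repeat protein LRRN1 averaged 53.1 ± 6.47 TPM at 96 h and 36.1 ± 1.48 TPM at 48 h, and EFNB2, a membrane ligand of Eph receptors, 15.6 ± 1.76 TPM at 96 h and 10.5 ± 0.258 TPM at 48 h. These last genes had log2 fold changes of 0.49, 0.54 and 0.52. Each kept its call only without 96 h replicate 3, and leaving out any other of the 6 libraries gave adjusted p up to 0.1. CDH18, a type II cadherin outside the list, averaged 8.10 ± 1.17 TPM at 96 h and 4.07 ± 0.241 TPM at 48 h and held in all 6 fits. The list also held members on the other side, such as NRXN3 (-0.43), which was not called.

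Of 23 measured integrins, collagens, laminins and matrix proteins, 2 were called higher and 0 lower, with 18 positive members and a median of 0.18. MATN2, the matrix adaptor matrilin 2 (chromosome 8, 97868840 to 98036716, plus strand), had 18.7, 19.7 and 19.2 TPM at 96 h and 9.91, 10.7 and 9.51 TPM at 48 h, a log2 fold change of 0.87 ± 0.13. FN1, fibronectin, had 84.8, 72.6 and 68.1 TPM at 96 h and 53.4, 57.2 and 53.4 TPM at 48 h, a log2 fold change of 0.45. The FN1 call was lost without 48 h replicate 1, 48 h replicate 3 or 96 h replicate 1, with adjusted p up to 0.084. COL6A1, TNC, ITGB4, LAMB1 and COL18A1 had log2 fold changes of 0.53 to 0.62 and were not called. Summed basal epithelial markers, of which ITGB4 was the only one measured above the filter, were 9.52 to 10.5 TPM at 96 h and 5.91 to 7.48 TPM at 48 h, with KRT5 and KRT15 at 0. In bulk RNA, more cells of a type and more RNA per cell cannot be told apart.

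Few genes of growth factor signalling were called, and 0.748% of all genes were called higher. The insulin-like growth factor axis had 2 of 11 measured members called higher and 0 lower, IGFBP3 and GRB10, with a list median of 0.07. GRB10, an adaptor that binds and restrains the insulin and IGF1 receptors (chromosome 7, 50590063 to 50793462, minus strand), had 223, 239 and 216 TPM at 96 h and 145, 145 and 148 TPM at 48 h, a log2 fold change of 0.62 ± 0.07. IGF1R, the receptor itself, had a log2 fold change of -0.45 and was not called. In the BMP and TGF-beta list, 3 of 20 measured members were called higher and 0 lower, all of them ID genes, which block basic helix-loop-helix factors and are direct targets of BMP signalling. ID1 averaged 129.8 ± 4.86 TPM at 96 h and 87.3 ± 8.37 TPM at 48 h, ID2 269.8 ± 15.8 TPM at 96 h and 208 ± 7.27 TPM at 48 h, and ID3 130.4 ± 5.17 TPM at 96 h and 95.0 ± 3.85 TPM at 48 h. Their log2 fold changes were 0.57, 0.37 and 0.45. The ID2 call held in all 6 leave-one-out fits. The ID1 call was lost without 48 h replicate 1 (adjusted p = 0.063) and the ID3 call without any 1 of the 6 libraries (adjusted p 0.054 to 0.15). The ligands, receptors and SMADs of the list were not called, with log2 fold changes of -0.25 (BMP7) to 0.38 (SMAD6).

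Clock genes were mostly positive. Of 17 members of the circadian clock list 14 had a positive log2 fold change (12 to 15 over the alternative settings). Of all 16169 genes, 8771 did. In the list 1 member was called higher and 0 lower, and the median was 0.24. The called member was CIART, a repressor of the CLOCK and ARNTL pair. It had 22.02, 22.3 and 22.2 TPM at 96 h and 17.4, 16.9 and 15.9 TPM at 48 h, a log2 fold change of 0.39. The CIART call was lost without 48 h replicate 2, 48 h replicate 3 or 96 h replicate 2, with adjusted p up to 0.081. CRY1, PER1, NPAS2, CRY2, PER2 and HLF had log2 fold changes of 0.27 to 0.37 and ARNTL one of -0.09, and none of these was called. The time of day at which each group was collected is not given in the sources used here. From 24 h to 48 h the same list had 0 members called higher and 2 lower, with a median of -0.10.

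Cell cycle genes were described by phase. Of 46 genes of DNA replication and S phase, 45 had a negative log2 fold change, with a median of -0.17 (-0.21 to -0.13 over the alternative settings), but only RFC2 was called, and no member was called higher. The number called lower was 9 to 13 with the other scalings and the mitochondrial covariate, and 0 with the 6 libraries alone. RFC2, a subunit of the clamp loader for DNA polymerase, had 95.7, 103 and 102 TPM at 96 h and 122, 126 and 126 TPM at 48 h, a log2 fold change of -0.32 (adjusted p = 0.037). The call was lost without any 1 of the 6 libraries, with adjusted p of 0.067 to 0.14. The replicative helicase subunits MCM2, MCM3, MCM4, MCM5, MCM6 and MCM7 had log2 fold changes of -0.27 to -0.15, and the cyclin E gene CCNE1 one of -0.27, all uncalled. In 25 of the 46 genes (54.3%) the 96 h libraries lay below all 48 h libraries, where 6.76% of all genes did.

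Mitotic genes had mostly positive values. Of 35 genes of G2 phase and mitosis, 28 had a positive log2 fold change (26 to 34 over the alternative settings). Their median was 0.08 (0.04 to 0.14 over those settings). Of the 35 genes 2 were called higher and 0 lower (0 to 4 higher over those settings), against 0.748% and 0.241% of all genes. UBE2C, the ubiquitin-conjugating enzyme of the anaphase-promoting complex, had 191, 169 and 177 TPM at 96 h and 135, 155 and 145 TPM at 48 h, and KIF20A, a kinesin of cytokinesis, 72.1, 70.1 and 68.8 TPM at 96 h and 58.6, 61.8 and 59.3 TPM at 48 h. Their log2 fold changes of 0.30 and 0.23 had adjusted p of 0.045 and 0.046, and both calls were lost without any 1 of the 6 libraries (adjusted p up to 0.21). TOP2A, a DNA topoisomerase of dividing cells, had the highest value of the list, 0.35, and was not called. MKI67, the proliferation antigen Ki-67, had 32.8, 33.0 and 29.3 TPM at 96 h and 30.5, 29.1 and 32.5 TPM at 48 h, so its libraries overlapped. CDKN1A, the p21 inhibitor of cyclin-dependent kinases, averaged 39.6 ± 1.05 TPM at 96 h and 40.7 ± 0.783 TPM at 48 h. None of 9 measured CDK inhibitors and D-type cyclins was called, and at most 1 was over the alternative settings.

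Genes of protein synthesis were slightly negative as groups, with few calls. All 20 cytosolic aminoacyl-tRNA synthetases, which load amino acids onto tRNA, had a negative log2 fold change, from -0.26 to -0.0015 with a median of -0.14 and up to 3 positive when 1 library was left out. Of these 0 were called, but 3 to 5 were called lower with the other scalings and the mitochondrial covariate. Of 47 nucleolar genes of ribosome assembly 43 were negative with a median of -0.10. NOP56, a core protein of box C/D ribonucleoproteins, was the only one called (0 to 5 called lower over the alternative settings), with 304, 347 and 343 TPM at 96 h and 417, 392 and 396 TPM at 48 h (log2 fold change -0.28, adjusted p = 0.046, lost without any 1 library). Cytosolic ribosomal proteins had a median of -0.06 over 58 genes and 0 calls in this list. RPL36A, a ribosomal protein gene outside the list, was called lower, with 104, 103 and 103 TPM at 96 h and 131, 128 and 126 TPM at 48 h (log2 fold change -0.31, adjusted p = 0.033), a call that held in 0 of 6 leave-one-out fits. MYC, a driver of ribosome synthesis, had 160.1, 154 and 131 TPM at 96 h and 181, 195 and 186 TPM at 48 h. Its libraries did not overlap, but the log2 fold change of -0.33 ± 0.13 was not called (adjusted p = 0.32).

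The amino acid response controlled by ATF4 had 21 of 27 members negative and a median of -0.19, with 1 called lower and 0 higher. The number called lower was 5 to 9 with the other scalings and the covariate, and 0 with the 6 libraries alone. ASNS, asparagine synthetase (chromosome 7, 97852118 to 97872542, minus strand), had 262, 248 and 239 TPM at 96 h and 331, 307 and 313 TPM at 48 h, a log2 fold change of -0.35 ± 0.05 (adjusted p = 0.0042). The groups did not overlap, and the call held in all 6 leave-one-out fits but was lost with the 6 libraries alone (adjusted p = 0.0932). CTH, PSAT1, SLC7A5 and ATF3 had lower values still, -0.41 to -0.35, without being called, and ATF4 itself had -0.14. In 14 of the 27 genes (51.9%) the 96 h libraries lay below all 48 h libraries, against 6.76% of all genes.

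Lipid enzymes were called in both directions, but the fatty acid list was mostly negative. Of 20 genes of fatty acid synthesis and elongation 2 were called lower and 1 higher, against 0.241% and 0.748% of all genes. The median was -0.11, with 17 negative and 3 positive members. In 9 members (45%) the 96 h libraries lay below all 48 h libraries and in 1 (5%) above, against 6.76% and 12% of all genes. The number called lower was 5 to 6 with the other scalings and the mitochondrial covariate, and 0 with the 6 libraries alone. ELOVL7, an elongase of long-chain fatty acids (chromosome 5, 60751791 to 60844389, minus strand), had 6.84, 5.32 and 4.95 TPM at 96 h and 12.2, 11.1 and 10.3 TPM at 48 h, a log2 fold change of -0.87 ± 0.12 (adjusted p = 0.0036). ELOVL2, an elongase of polyunsaturated fatty acids, averaged 3.08 ± 0.501 TPM at 96 h and 5.42 ± 0.451 TPM at 48 h, with a log2 fold change of -0.66. SCD5, a desaturase, averaged 10.5 ± 1.497 TPM at 96 h and 6.21 ± 0.405 TPM at 48 h, with 0.67. The ELOVL2 call was lost without 48 h replicate 1 or 2 (adjusted p up to 0.063), and the SCD5 call without 48 h replicate 3 or 96 h replicate 1 (up to 0.07). FASN, fatty acid synthase, and ACLY, which makes its acetyl-CoA, had log2 fold changes of -0.10 and -0.01 and were not called. Of 24 genes of cholesterol synthesis and uptake, TM7SF2, a sterol reductase, was called higher and 0 were called lower (list median -0.05). TM7SF2 averaged 335 ± 29.6 TPM at 96 h and 274 ± 5.20 TPM at 48 h, and its call was lost without any 1 of the 6 libraries (adjusted p 0.054 to 0.19).

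Metallothioneins are small cysteine-rich proteins that bind zinc and copper and are induced by metals and by glucocorticoids. Of 11 genes of their list, 2 were called lower and 0 higher, against 0.241% and 0.748% of all genes. MT2A (chromosome 16, 56608199 to 56609497, plus strand) had 253, 243 and 258 TPM at 96 h and 350, 342 and 358 TPM at 48 h, a log2 fold change of -0.48 ± 0.06 (adjusted p = 0.0027). MT1X (56682424 to 56684196, plus strand) had 94.1, 86.5 and 90.4 TPM at 96 h and 124, 113 and 120.3 TPM at 48 h, with -0.39 (adjusted p = 0.014). The MT1X call was lost without 48 h replicate 1, 48 h replicate 3 or 96 h replicate 2, with adjusted p up to 0.084. These paralogues are similar enough that short reads can be shared between them. SLC30A1, a zinc exporter controlled by the same metal-sensing factor, had a log2 fold change of 0.11, and MTF1, that factor, one of -0.04. Neither was called. The windows before both starts are shown because the 2 genes fell together and are textbook metal-response promoters, at chr16:56608334-56608583 and chr16:56682220-56682469 (RefSeq, GRCh38.p14, plus strand, 5′ to 3′). Both RefSeq starts lie inside the GENCODE genes.
MT2A: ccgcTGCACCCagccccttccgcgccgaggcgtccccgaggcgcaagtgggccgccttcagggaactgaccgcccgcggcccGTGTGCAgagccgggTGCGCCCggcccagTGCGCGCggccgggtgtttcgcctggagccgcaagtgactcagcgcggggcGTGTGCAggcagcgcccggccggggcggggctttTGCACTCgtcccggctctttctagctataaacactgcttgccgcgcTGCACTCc
MT1X: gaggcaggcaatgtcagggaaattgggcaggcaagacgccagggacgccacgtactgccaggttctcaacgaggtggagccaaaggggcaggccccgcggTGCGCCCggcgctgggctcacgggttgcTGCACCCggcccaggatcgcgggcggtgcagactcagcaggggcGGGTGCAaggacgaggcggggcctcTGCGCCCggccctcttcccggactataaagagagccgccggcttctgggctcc
The capitals mark TGCACNC and TGCGCNC on either strand, the core letters of the metal response element, with 7 matches in MT2A and 4 in MT1X. Of 35116 upstream windows 24.8% hold at least 1 match and 1.58% at least 3.

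The other glucocorticoid-response genes were not called. Of 12 measured members of that list, MT2A and MT1X were the only ones called, 2 lower and 0 higher, against 0.241% and 0.748% of all genes. Over the alternative settings 1 to 3 were called lower and 0 higher. The list median was 0.13, with 8 positive and 4 negative members. PER1, SGK1, TSC22D3 and KLF9, direct targets of the glucocorticoid receptor, had log2 fold changes of 0.15 to 0.34. The highest value of the list was 0.70, also uncalled. In 4 members (33.3%) the 96 h libraries lay above all 48 h libraries and in 3 (25%) below, against 12% and 6.76% of all genes. Among 20 immediate early and AP-1 genes, which serum and growth factors induce within minutes, EGR1 and FOS were called lower and 0 higher (0 to 5 lower and 0 to 1 higher over the alternative settings). Of all genes, 0.241% were called lower and 0.748% higher. EGR1 had 1.35, 1.52 and 0.93 TPM at 96 h and 3.17, 3.14 and 2.81 TPM at 48 h, a log2 fold change of -0.84 that held in all 6 leave-one-out fits. FOS had 27.5, 28.1 and 38.6 TPM at 96 h and 51.8, 52.6 and 54.9 TPM at 48 h, with -0.76 (adjusted p = 0.037), a call kept only without 96 h replicate 3. JUN, JUNB and JUND had 0.07, 0.31 and 0.41 and were not called.

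Several lists had no called member at this step. Of the 25 neuroendocrine genes, 6 passed the level filter and 0 were called (at most 2 over the alternative settings). ENO2, a neuronal enolase, and SYT4, a synaptotagmin, had log2 fold changes of 0.45 and 0.42 with libraries that did not overlap. The summed level of the 9 neuroendocrine markers used as a check was 52.1 to 55.7 TPM at 96 h and 35.4 to 42.1 TPM at 48 h, with CHGA and INSM1 at 0, and the part of this in the neurite adhesion genes was not tested. HLA class I presentation had 10 of 14 members positive (median 0.09), lysosome and autophagy 28 of 33 (median 0.07), and WNT, NOTCH and hedgehog signalling 21 of 27 (median 0.12), each with 0 calls and at most 2 over the alternative settings. Over those settings 9 to 11, 19 to 28 and 17 to 22 members of these lists were positive. Of all 16169 genes 8771 were positive in the main fit. SOX9, a transcription factor of prostate progenitors, had 14.4, 11.2 and 9.84 TPM at 96 h and 8.85, 8.55 and 8.0 TPM at 48 h, a log2 fold change of 0.42 ± 0.13 that was not called (adjusted p = 0.17). It passed the threshold under median-of-ratios scaling, quantile normalization and the mitochondrial covariate, with adjusted p down to 0.031. HK2, hexokinase 2, had 11.2, 9.47 and 7.97 TPM at 96 h and 12.3, 12.1 and 11.1 TPM at 48 h, with -0.30 (adjusted p = 0.34, and 0.0351 with the mitochondrial covariate), and DNM1L, the mitochondrial fission dynamin, 48.5, 51.3 and 43.8 TPM at 96 h and 49.3, 49.1 and 47.8 TPM at 48 h. Of 21 measured interferon genes IFI6 was called higher (27.6 ± 1.13 TPM at 96 h, 19.1 ± 1.34 TPM at 48 h), a call lost without 48 h replicate 1 or 3 or 96 h replicate 1 or 2 (adjusted p up to 0.097).

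**Figure D3:**
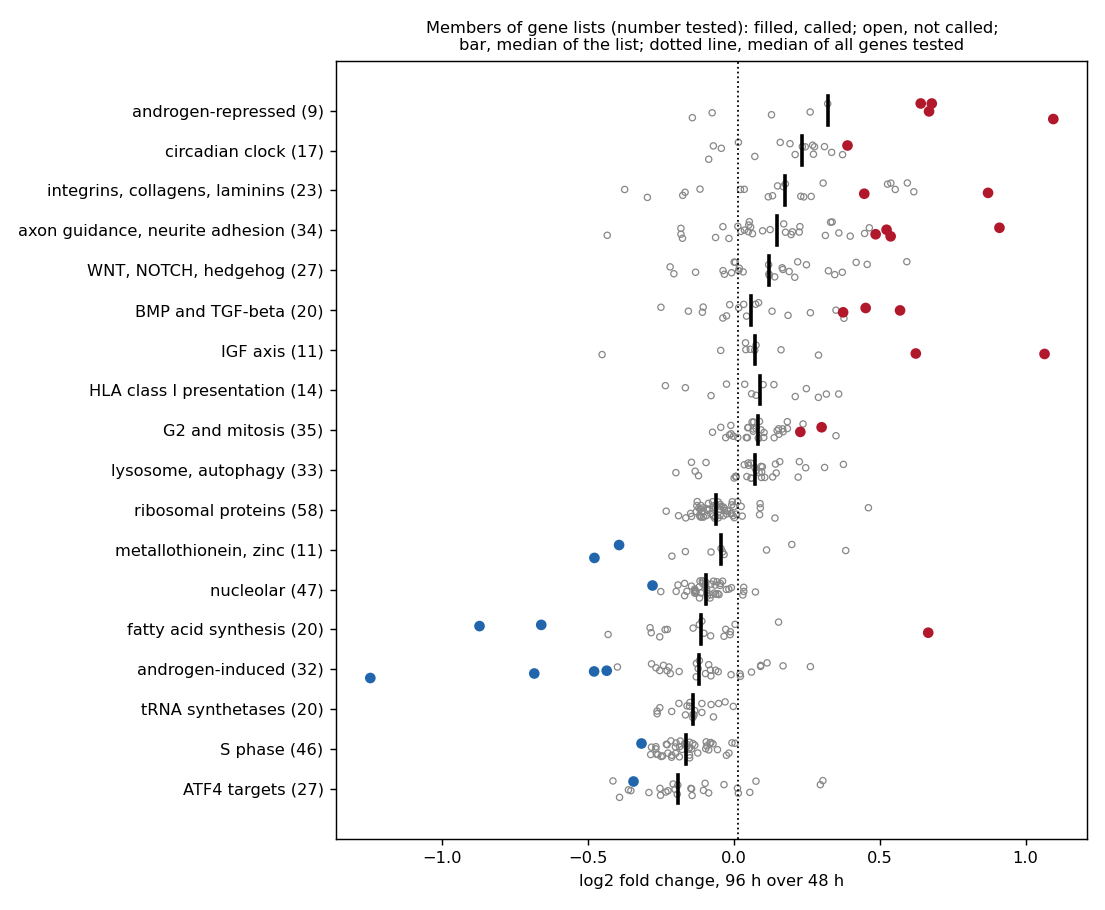
Log2 fold change of 96 h over 48 h for the measured members of 18 gene lists, with called members filled (red higher, blue lower), uncalled members open, the list median as a bar and the median of all genes as a dotted line. The androgen-repressed median stands at 0.32 and the ATF4 median at -0.19, while most members of every list are open.

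The other steps of the time course give the setting. Between 48 h and 24 h, 147 genes (0.909%) were called, 76 higher (0.47%) and 71 lower (0.439%), and between 144 h and 96 h, an interval of the same 48 h length, 395 genes (2.44%), 267 higher (1.65%) and 128 lower (0.792%). These steps share libraries with the one described, so their values are given side by side only. KLK3 averaged 313, 171, 71.8 and 34.2 TPM at 24, 48, 96 and 144 h, and S100P 449, 315, 119 and 44.2 TPM. MAST4 averaged 7.34, 16.97, 40.01 and 68.6 TPM, CNTN5 7.88, 15.3, 29.6 and 69.4 TPM, and IGFBP3 23.2, 43.9, 92.9 and 189.5 TPM over the same hours, so these genes moved 1 way at every step. Others did not. AADAT averaged 61.4, 45.2, 29.7 and 29.4 TPM, FOS 87.5, 53.1, 31.4 and 32.3 TPM, and RMRP 135.3, 115.7, 265.8 and 268.1 TPM. ID1 averaged 86.6, 87.3, 129.8 and 134 TPM. In long-term cells the level of KLK3 was 143 TPM, of MAST4 3.75 TPM, of DDC 21.5 TPM and of IGFBP3 451 TPM.

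Gene lists also differed in course. The S phase list had medians of -0.05, -0.17 and -0.15 over the 3 successive steps, and the G2 and mitosis list -0.14, 0.08 and -0.34. From 96 h to 144 h, 13 of the 35 mitotic genes were called lower, against 0 from 48 h to 96 h. A test of the difference between the 48 h to 96 h step and the 96 h to 144 h step called 1 gene of 16169 (0.00618%), KIF20A, with a difference of 0.69 on the log2 scale (adjusted p = 0.022), while 738 genes (4.56%) had an unadjusted p under 0.05. KIF20A averaged 64.8, 59.9, 70.3 and 50.7 TPM at 24, 48, 96 and 144 h. The count was 0 to 8 over the alternative settings.

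**Figure D4:**
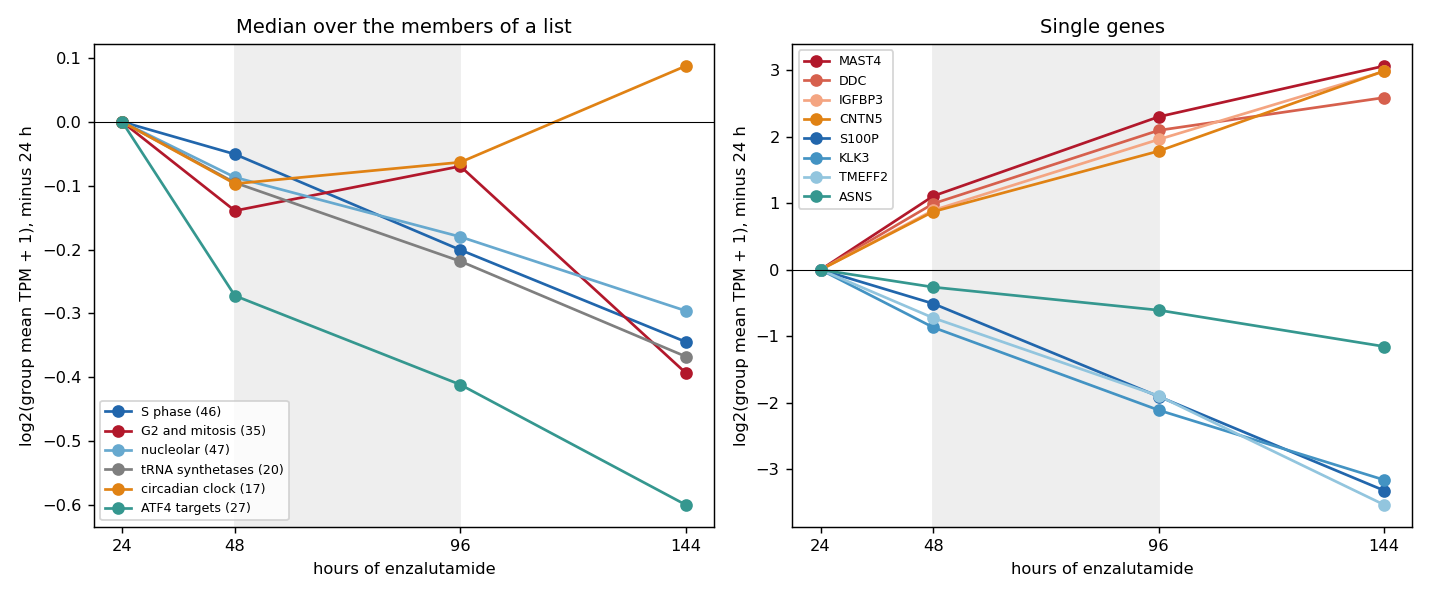
Log2 of the group mean TPM + 1 minus that at 24 h, by hours of enzalutamide, with the 48 h to 96 h interval shaded. Left, medians over 6 gene lists (number of genes in brackets). Right, 8 single genes. The G2 and mitosis line lies above its 48 h value at 96 h and below it at 144 h, and the single genes keep their direction at each step.

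The 144 h and 24 h libraries, which do not enter the difference between 96 h and 48 h, were used to look at direction. At 144 h against 24 h, all but 5 of the 121 genes called higher had a positive log2 fold change, 114 of them called, and all 39 genes called lower had a negative one, 37 of them called. Their median log2 fold changes were 1.22 and -1.57. Of all tested genes, 4502 (27.8%) were called at 144 h against 24 h, 2854 higher (17.7%) and 1648 lower (10.2%), and 75% of the genes positive from 48 h to 96 h were positive there, as were 61.6% of the negative genes negative. Between called genes, UBE2C and KIF20A were the exceptions that were called the other way, and CIART (-0.03) and a pair of miRNA genes at 0 were not called. In long-term cells against 24 h, 94 of the 121 genes (77.7%) were positive, 80 of them called, and 19 were called the other way. Of the 39 genes 35 (89.7%) were negative, 34 of them called, and 4 were called the other way. Among all genes, 46.3% of those positive from 48 h to 96 h were positive there and 77% of those negative were negative, and 46.6% of all genes were called, 14.1% higher and 32.6% lower. KLK2 and KLK4, lower at 96 h than at 48 h, averaged 63.7 and 401 TPM in long-term cells, against 23.8 and 144 TPM at 24 h.

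**Figure D5:**
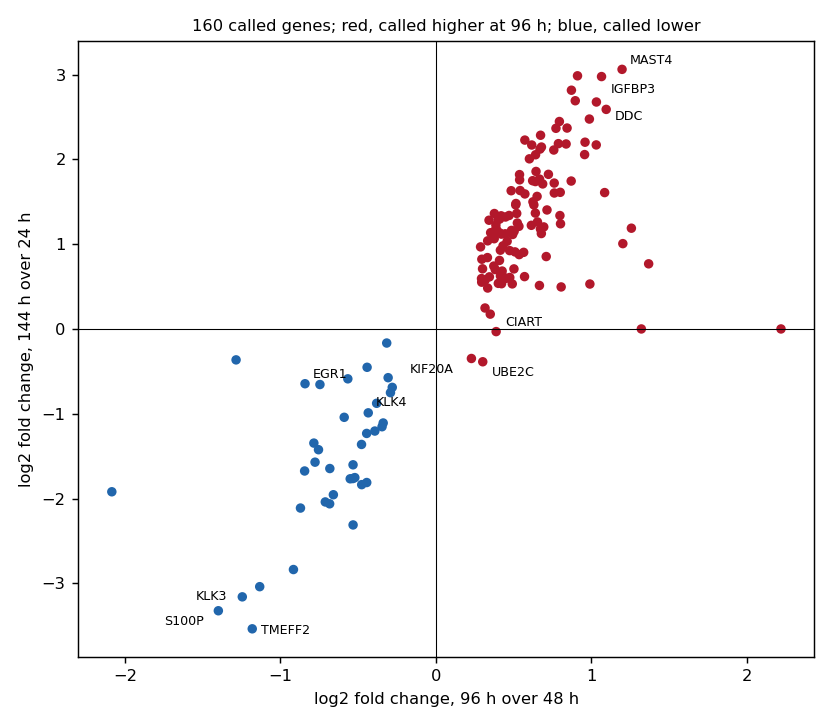
Log2 fold change of 144 h over 24 h (vertical axis) against that of 96 h over 48 h (horizontal axis) for the 160 called genes, red for higher and blue for lower at 96 h. The red points lie in the upper right except KIF20A, UBE2C, CIART and 2 points at 0, and all blue points lie in the lower left.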

How the data were processed

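Poly(A)-selected, strand-specific libraries of 18 samples were read as single reads of 50 bp, per the labels' protocols. Partek, STAR and RSEM and the builds GRCh38 and hg38 are listed in the submitters' processing notes, with no role, order or version. The authors deposited TPM for each gene. These are not counts, so no count test was used, no interval for counting error could be given and the depth per sample is unknown. Of 60623 gene identifiers 58516 matched GENCODE release 29 (GRCh38), which gave positions and types.

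Genes with at least 1 TPM in at least 3 of the 18 libraries were kept (16169). Values were taken as log2(TPM + 1) and fitted with limma 3.58.1 in R 4.3.3, with 5 group means over the 15 drug libraries and a variance trend. Tests were two-sided with Benjamini-Hochberg adjustment over all genes, and called at 0.05. On simulated data of 16169 genes for 96 h against 48 h, 98 of 100 genes with a simulated log2 change of 1 and 66 of 100 with 0.5 were recovered, and 8 of 172 calls were of unchanged genes. The changed genes were drawn from those averaging above 5 TPM on the log2(TPM + 1) scale, so recovery of lower genes was not tested. The noise there was drawn independently per gene, with no difference shared across a library.

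Named genes are up to 12 in each direction with the largest fold change among called genes without overlap of libraries, with at least 5 TPM in the higher group and a call that held with each of the 6 libraries left out, clone names, pseudogenes, small RNA genes and Y-linked genes apart (12 higher, 11 lower), up to 4 called members of lists with at least 2, and 13 genes fixed by name. CIART was named as the 1 called gene of its list. A pair of genes is not reported here, and the lists and marker sets were counted without them. The step was proposed, and gene lists, names and tests were chosen, with earlier results of these data known. Alternatives were another pseudocount, other filters, scalings, covariates and sets of libraries, and leaving out libraries.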

Additional observations from a re-analysis of the deposited data

Results flagged for a closer look

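KIF20A was singled out because the difference between the 48 h to 96 h step and the 96 h to 144 h step, tested itself with limma, passed the threshold. The difference was 0.6921 on the log2 scale (adjusted p = 0.0221). KIF20A, a kinesin of cytokinesis, had 72.1, 70.1 and 68.8 TPM at 96 h and 58.6, 61.8 and 59.3 TPM at 48 h, and averaged 50.7 TPM at 144 h. The call was lost with the libraries of 48, 96 and 144 h alone, without a variance trend, with the replicate block and in 7 of 9 fits that left out 1 library. It is 1 gene of 16169 tested, and the steps share the 96 h libraries.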

How the results depend on the processing

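The 160 calls became 101 without a filter on low values, 315 with median-of-ratios scaling, 354 with quantile normalization, 324 after rescaling without mitochondrial genes, 461 with the mitochondrial share as a covariate and 31 with the 6 libraries alone. Of these, 89, 147, 153, 157, 160 and 28 were among the 160. Leaving out 1 library gave 46 to 112 calls, lowest without 48 h replicate 1. The 121 genes called higher became 67, 181, 213, 215, 263 and 21 under the same settings, with 31 to 85 when 1 library was left out. The 39 called lower became 134, 141, 109, 198 and 10 under the 5 settings from median-of-ratios scaling on, with 15 to 36 when 1 library was left out. The 17 genes with at least 1 on the log2 scale became 31 with a pseudocount of 0.1, and 11 to 18 when 1 library was left out. The 155 calls with the same sign at 144 h against 24 h became 92 without a filter, 311, 346, 316 and 451 with the scalings and the covariate in the order above, and 45 to 109 when 1 library was left out. Without a filter 38017 genes were tested in place of 16169, and the fits on the 6 libraries or with 1 left out had fewer samples by construction; otherwise the cause was not tested.

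The test of the step difference called 1 gene, and 2 with a filter of 5 TPM, 8 without a filter, 6 with median-of-ratios scaling, 7 with quantile normalization, 3 without mitochondrial genes, 5 with the covariate, 2 with only the libraries compared, 5 with all 18 libraries, 0 without a variance trend and 0 with the replicate block. It called 0 to 3 when 1 library was left out. Same-numbered libraries at 96 h and 48 h had correlations of deviations of 0.00532, -0.0062 and 0.0327, against -0.0563 to 0.0568 for libraries of different number. Such values cannot tell whether same-numbered libraries shared a culture, and the main fit took them as unpaired. With the replicate block, 107 genes were called, 78 of them higher, and 103 kept the sign at 144 h against 24 h.

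No called gene that the text names changed sign. TMPRSS2, at 0.02, turned to -0.000997 with median-of-ratios scaling, -0.0495 without 48 h replicate 2 and -0.0253 without 96 h replicate 3, and DNM1L, at -0.03, ranged from -0.079 to 0.032 when 1 library was left out, positive without 96 h replicate 3. All scalings moved the median of all genes by less than 0.1. The list median of the mitochondrially encoded proteins, -0.09, ranged from -0.23 to 0.10. Precision is limited by 3 libraries a group and unknown depth.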

Other observations

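Further called genes fell into families that were chosen after their values were seen, so the counts below are descriptions. Of all genes tested, 0.748% were called higher. With the 6 libraries alone, 0 uroplakins, ephrin ligands, HLA class II genes and tubulins were called, and 1 HOXC gene was. Of 5 measured uroplakins, the membrane proteins of urothelium, 3 were called higher at 96 h. UPK2 had 2.10, 2.94 and 2.46 TPM at 96 h and 0.82, 1.01 and 1.00 TPM at 48 h, a log2 fold change of 0.84 (adjusted p = 0.0046) that held in all 6 leave-one-out fits. UPK3A averaged 9.54 ± 1.14 TPM at 96 h and 5.87 ± 0.347 TPM at 48 h, with 0.61. UPK1A averaged 0.773 TPM at 96 h and 0.137 TPM at 48 h, and was under the 1 TPM of the filter in all 6 libraries. It passed the filter only through libraries outside this comparison, with averages of 1.77 TPM at 144 h and 2.33 TPM in long-term cells. Its place among the 3 called uroplakins is therefore no support for the family. UPK3B and UPK3BL1 had 0.05 and -0.07 and were not called. The UPK1A call was lost without any 1 of the 6 libraries, and the UPK3A call was kept only without 96 h replicate 3 (adjusted p up to 0.13 otherwise).

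All 8 measured ephrin ligands, which signal to Eph receptors between touching cells, had positive log2 fold changes (7 of 8 without 48 h replicate 1), and EFNA3, EFNB2 and EFNB3 were called higher. EFNA3 had 51.3, 44.1 and 45.6 TPM at 96 h and 32.6, 36.1 and 36.6 TPM at 48 h, with 0.41. Its call was lost without 48 h replicate 1 (adjusted p = 0.056), and the EFNB2 and EFNB3 calls each held in 1 of 6 leave-one-out fits (up to 0.103 and 0.108). Both measured inhibitors of calcium/calmodulin-dependent kinase II were called higher, CAMK2N1 as given above and CAMK2N2 with 15.8 ± 1.19 TPM at 96 h and 10.9 ± 0.972 TPM at 48 h. The CAMK2N2 call held in 2 of 6 leave-one-out fits (adjusted p up to 0.114), and neither gene was called with the 6 libraries alone. All 7 measured HOXC genes had positive values of 0.18 to 0.76, and HOXC9 (23.6 ± 2.71 TPM at 96 h, 13.5 ± 0.499 TPM at 48 h) and HOXC6 were called. The HOXC6 call was lost without any 1 of the 6 libraries (adjusted p up to 0.182), and the HOXC9 call held in 1 of 6 leave-one-out fits (up to 0.0751). The HOXC genes overlap on 1 strand, so reads between them may be shared.

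Of 11 measured alpha and beta tubulins, TUBA1A and TUBB4A were called higher, with log2 fold changes of 0.76 and 0.43. The TUBA1A call was lost without 48 h replicate 1 (adjusted p = 0.0558), and the TUBB4A call held in 1 of 6 leave-one-out fits (up to 0.108). The abundant TUBA1B, TUBA1C, TUBB and TUBB4B, at 316 to 804 TPM at 96 h, had -0.10 to 0.08 and were not called. Of 9 measured HLA class II genes, HLA-DRA and HLA-DQB1 were called higher, HLA-DQB1 in only 1 of 6 leave-one-out fits (adjusted p up to 0.162). HLA-DRA had 4.45, 4.0 and 3.39 TPM at 96 h and 2.00, 1.30 and 1.69 TPM at 48 h, with 0.90, a call that held in all 6 leave-one-out fits, while leukocyte markers summed to at most 0.44 TPM at 96 h. HLA genes vary between people and share sequence, so their single levels are uncertain.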
